A study of Mus musculus with 9 samples.

Results

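Ttr, Folr1, Enpp2, Kl, Clic6, Foxj1 and Prlr are genes known for strong expression in the choroid plexus, and they were followed here in libraries made from dissected cerebral cortex. They were chosen as 7 symbols from earlier results of the same libraries, Prlr for its low level in the immunopurified RNA, and all 7 had a row among the 32531 gene rows of the count files. Because the choice used these values, levels and fold changes of the 7 genes are given as a description, with no test. The libraries came from untreated adult mice of the TRAP line Abcb1a-EGFP/Rpl10a (ES3026), in which a ribosomal protein fused to green fluorescent protein is made under regulatory sequence of Abcb1a, the gene of an efflux pump in the endothelium of brain vessels. In translating ribosome affinity purification, an antibody against the tag pulls down ribosomes of the tagged cells with the mRNA they carry. There were 3 groups of 3 libraries: ES IP and JL IP, immunopurified ribosome-bound RNA extracted by 2 investigators known by these initials, and JL input, total cortical RNA extracted by JL. All groups share the line, the tissue and the lack of treatment, and the submitters describe no other functional difference between ES and JL. There was no ES input. No label ties a library to its own mouse, so an adjusted p-value here describes the spread among libraries, which may be technical.

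The choroid plexus is a folded epithelium in the brain ventricles that secretes cerebrospinal fluid and passes hormones and vitamins into it. Ttr encodes transthyretin, its main secreted protein, which carries thyroxine and takes part in carrying retinol. Folr1 encodes the folate receptor that carries folate across this epithelium, Kl encodes klotho, a co-receptor for FGF23 that is also shed, and Prlr encodes the prolactin receptor. Enpp2 encodes autotaxin, which makes lysophosphatidic acid and is also made by oligodendrocytes. Clic6 belongs to the intracellular chloride channel family, and Foxj1 is the transcription factor that switches on the genes of motile cilia in choroid plexus and in ependyma, the lining of the ventricles.

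Gene counts per library ran from 31987470 to 46598478. The ribosomal RNA precursor row Rn45s took 8.74 ± 3.04% of gene counts in ES IP, 16.9 ± 1.09% in JL IP and 5.10 ± 0.236% in JL input (mean ± SD, n = 3). Levels are given as CPM, counts per 1000000 counts of a library after TMM scaling of its size. A count of 3, taken as the limit that a count of 0 allows, corresponded to between 0.0577 and 0.101 CPM, counting error only. Abcb1a, whose regulatory sequence drives the tag, stood at 46.5 ± 8.49 CPM in ES IP, 458 ± 20.8 CPM in JL IP and 2.11 ± 0.478 CPM in JL input. The cell type label names endothelium for all libraries, but in JL input the 14 endothelial markers summed to 61.7 to 69.2 CPM and the 14 neuron markers to 17798 to 18607 CPM. The Y-linked gene Ddx3y had 660, 1037 and 855 counts in ES IP, 2298, 1 and 0 counts in JL IP and 3249, 1 and 0 counts in JL input, so replicate 1 of both JL groups stands apart. The ES libraries shared 1 sequencing lane, and IP and input of the same JL number shared a lane. Investigator, lane and group therefore cannot be told apart between ES and JL. Sex differs with them in part, since Ddx3y was counted in all ES libraries but, beyond 1 count, only in replicate 1 of the JL groups.

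The RefSeq promoter table (GRCm38.p6) held windows for Kl and Prlr. They are shown because no window of the other genes was usable here, and their levels played no part in the choice. Their 250 bases before the annotated start are shown on the plus strand, 5′ to 3′. They lie at chr5:150952357-150952606 and, for the most upstream of 3 Prlr starts, at chr15:10176988-10177237. Capitals mark CG dinucleotides.
Kl: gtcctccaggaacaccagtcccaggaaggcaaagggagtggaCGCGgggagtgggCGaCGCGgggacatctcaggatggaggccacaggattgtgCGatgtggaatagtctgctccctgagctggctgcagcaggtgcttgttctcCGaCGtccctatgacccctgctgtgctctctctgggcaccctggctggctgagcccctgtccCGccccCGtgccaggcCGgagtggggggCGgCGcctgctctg
Prlr: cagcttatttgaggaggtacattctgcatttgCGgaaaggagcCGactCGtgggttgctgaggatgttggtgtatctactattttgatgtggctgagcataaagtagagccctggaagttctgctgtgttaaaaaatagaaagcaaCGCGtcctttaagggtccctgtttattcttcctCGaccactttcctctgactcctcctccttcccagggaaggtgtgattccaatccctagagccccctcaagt
The Kl window held 13 CG dinucleotides and the Prlr window 6, against a median of 6 over 32851 promoter windows of the same length, of which 31.5% held at least as many as Kl. The core letters TAATCC of the motif of Otx2, a homeobox factor of choroid plexus, were found on either strand in 0 of the 4 Kl and Prlr windows and in 6.25% of all windows. Absence of these letters says nothing about binding of the factor.

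In mm10 with the GENCODE M21 annotation, Ttr lies on chromosome 18 at 20665280 to 20674321 on the plus strand. Folr1 lies on chromosome 7 at 101858331 to 101870788 (minus), Enpp2 on chromosome 15 at 54838901 to 54952892 (minus) and Kl on chromosome 5 at 150952607 to 150993817 (plus). Clic6 lies on chromosome 16 at 92485736 to 92541243 (plus), Foxj1 on chromosome 11 at 116330704 to 116335399 (minus) and Prlr on chromosome 15 at 10177238 to 10349180 (plus). Exons of Enpp2 overlap those of the antisense noncoding gene Gm26684 over 345 bases, which is 5.97% of its exonic length, and exons of Prlr overlap those of Gm21973 over 203 bases, or 1.32%. Whether counting used strand is not known from the sources used here, nor is the annotation used. How reads in the Enpp2 overlap were assigned is therefore not known. Reads counted as ambiguous between genes made up 2.48 ± 0.0509% of all counts in ES IP, those outside genes included. They made up 2.09 ± 0.0462% in JL IP and 10.8 ± 0.519% in JL input (mean ± SD, n = 3). What this difference does to the level of Enpp2 was not tested. Genes of different length are compared per kilobase of exon below.

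Ttr was the most abundant of the 7 genes in JL input and nearly absent from ES IP. Its level was 1.26, 1.53 and 0.668 CPM in the 3 ES IP libraries, 38.1, 49.9 and 53.6 CPM in JL IP and 625, 702 and 606 CPM in JL input. The 3 groups did not overlap, and ES IP lay far below the other two. The raw counts behind these levels were 52, 67 and 28 in ES IP, 1127, 1751 and 1625 in JL IP and 32507, 35842 and 28497 in JL input. The mean in JL IP was 7.33% of that in JL input, a log2 fold change of -3.77 ± 0.14 (SE). The mean in ES IP was 0.179% of that in JL input, a log2 fold change of -9.20 ± 0.32. Between the immunopurified groups, ES IP over JL IP, the log2 fold change was -5.35 ± 0.32.

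Folr1, the folate receptor, had the fewest counts of the 7 genes in each group, summed over its libraries. Its counts were 1, 4 and 7 in ES IP, 0, 31 and 29 in JL IP and 88, 82 and 73 in JL input, few enough that counting error is large in both IP groups. The levels were 0.0243, 0.0914 and 0.167 CPM in ES IP, 0, 0.884 and 0.957 CPM in JL IP, and 1.69, 1.61 and 1.55 CPM in JL input. JL IP replicate 1, with no count where the limit was 0.101 CPM, stood apart from replicates 2 and 3, and at that limit it cannot be ranked against ES IP. The log2 fold change of JL IP over JL input was -1.39 ± 0.93, and -0.81 without JL IP replicate 1. ES IP over JL input gave -4.14 ± 0.50, and Folr1 did not pass the filter on low counts for ES IP against JL IP.

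Kl, the FGF23 co-receptor, kept more of its input level in JL IP than the other genes apart from Folr1, whose share turned on the count of 0 in replicate 1. It stood at 1.77, 2.56 and 3.87 CPM in ES IP, 7.88, 7.13 and 6.83 CPM in JL IP and 17.8, 16.1 and 17.1 CPM in JL input. As for Ttr, the groups did not overlap and ES IP was the lowest. The JL IP mean was 42.8% of the JL input mean and the ES IP mean 16.1%, with log2 fold changes of -1.23 ± 0.14 and -2.72 ± 0.26. ES IP over JL IP gave -1.41 ± 0.34.

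Enpp2, the enzyme that makes lysophosphatidic acid, stood at nearly the same level in both immunopurified groups. Levels were 78.7, 98.6 and 86.4 CPM in ES IP, 92.1, 85.7 and 101.4 CPM in JL IP and 251, 237 and 262 CPM in JL input. ES IP and JL IP overlapped, and both lay below JL input. ES IP over JL IP was -0.08 ± 0.16 on the log2 scale, while JL IP and ES IP over JL input were -1.43 ± 0.08 and -1.59 ± 0.13.

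Prlr, the prolactin receptor, was likewise at similar low levels in both immunopurified groups, with 1.14, 1.05 and 1.03 CPM in ES IP, 0.879, 1.34 and 1.29 CPM in JL IP and 13.2, 15.5 and 14.2 CPM in JL input. ES IP lay within the range of JL IP, and both lay far below JL input. Means in JL IP and ES IP were 8.19% and 7.53% of the JL input mean, log2 fold changes of -3.60 ± 0.22 and -3.81 ± 0.16. The log2 fold change of ES IP over JL IP was -0.12 ± 0.53.

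Clic6 and Foxj1 ran the other way between the immunopurified groups. Clic6 had 2.09, 3.63 and 3.32 CPM in ES IP, 0.947, 1.25 and 1.65 CPM in JL IP and 14.2, 12.4 and 13.1 CPM in JL input. Foxj1 had 4.79, 3.29 and 4.44 CPM in ES IP, 1.01, 0.798 and 1.22 CPM in JL IP and 5.92, 5.66 and 6.55 CPM in JL input. For both genes every ES IP library lay above every JL IP library and below every JL input library. ES IP over JL IP was 1.23 ± 0.44 for Clic6 and 2.05 ± 0.40 for Foxj1 on the log2 scale. JL IP over JL input was -3.37 ± 0.24 for Clic6 and -2.58 ± 0.28 for Foxj1, and ES IP over JL input was -2.22 ± 0.21 and -0.62 ± 0.19. Foxj1 thus had 69.0% of its JL input level in ES IP and 16.7% in JL IP, and Clic6 22.8% and 9.70%.

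**Figure D1:**
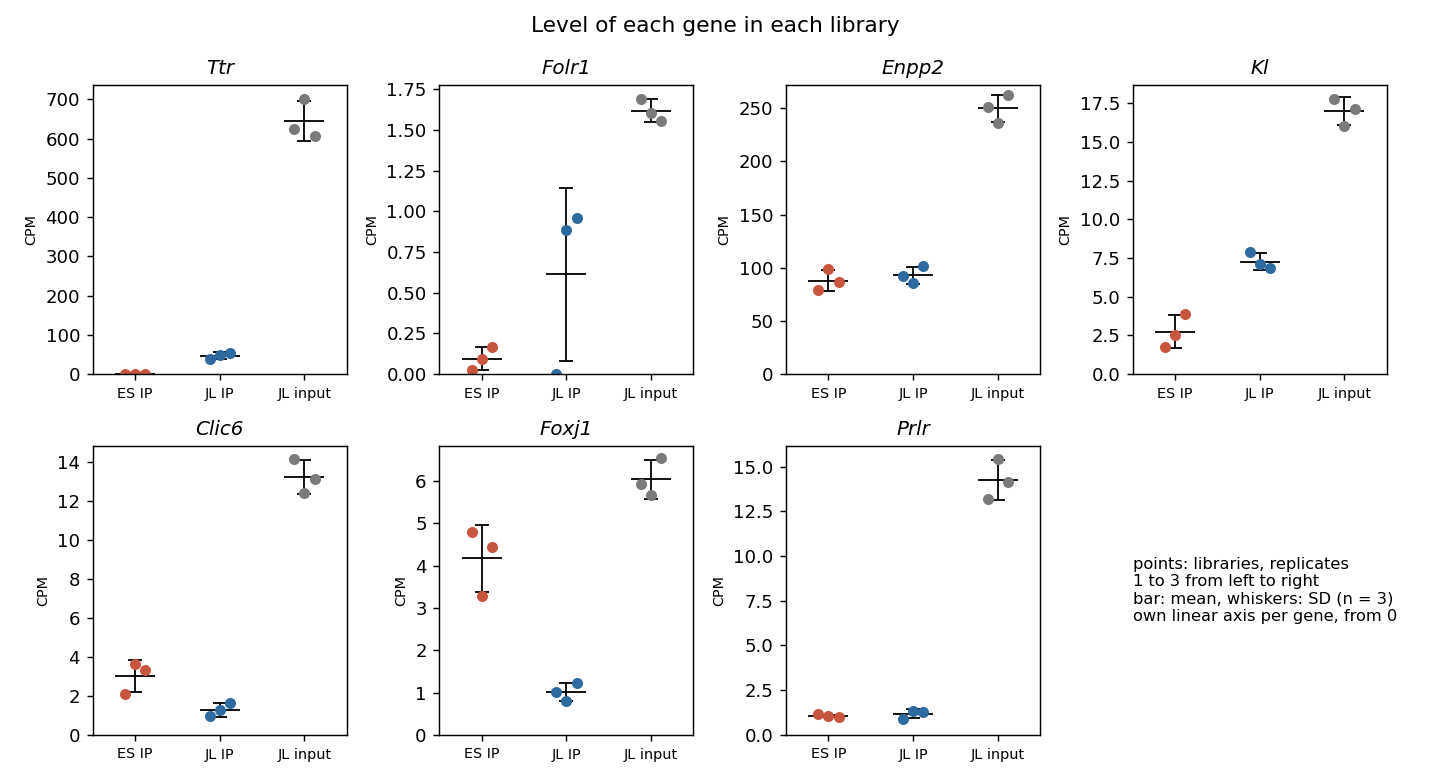
Level of each of the 7 genes in CPM (TMM effective library size) in the 3 libraries of ES IP, JL IP and JL input, with mean and SD (n = 3), each gene on its own linear axis from 0. JL input is the highest group for all 7 genes; Ttr reaches 606 to 702 CPM there and 0.668 to 1.53 CPM in ES IP, and Foxj1 and Clic6 lie higher in ES IP than in JL IP.

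All 7 genes were lower in every JL IP library than in every JL input library, and likewise in ES IP against JL input. Over all tested genes such a separation in the lower direction was found for 42.1% (JL IP against JL input, 17357 genes) and 29.1% (ES IP against JL input, 17477 genes). The counts of the 7 genes support nothing beyond this, since the genes were chosen on these contrasts. Between ES IP and JL IP, 2 genes (Ttr and Kl) were separated in the lower direction, 2 (Clic6 and Foxj1) in the higher and 3 overlapped, against 32.1% and 33.7% of the 16212 genes tested. The comparisons share libraries and are not independent.

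**Figure D2:**
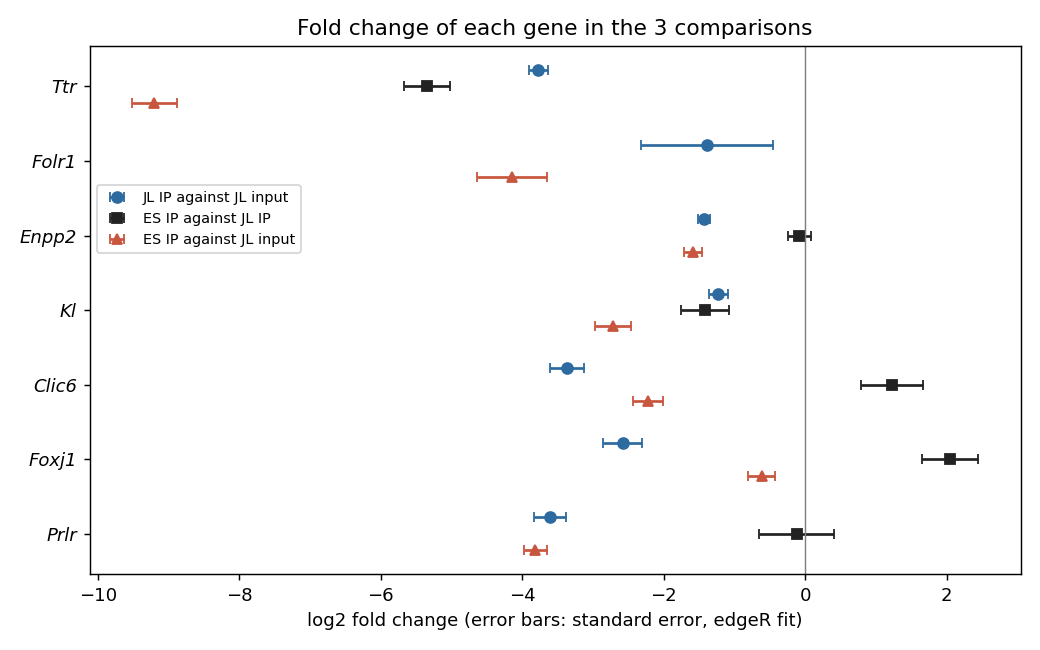
log2 fold change with its standard error (edgeR fit) for each gene in JL IP against JL input (circles), ES IP against JL IP (squares) and ES IP against JL input (triangles). JL IP against JL input spans -3.77 for Ttr to -1.23 for Kl, whereas ES IP against JL IP spans -5.35 for Ttr to 2.05 for Foxj1; Folr1 has no square because it did not pass the filter on low counts there.

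Within pairs of the same JL number, which share a lane, the level in JL IP as a percentage of that in JL input was 6.10, 7.11 and 8.85 for Ttr in numbers 1, 2 and 3. It was 6.67, 8.67 and 9.09 for Prlr, 6.68, 10.1 and 12.6 for Clic6, and 0, 55.0 and 61.7 for Folr1. Number 1, the pair with Ddx3y counts, was the lowest of the 3 for these 4 genes. The percentage was 36.7, 36.2 and 38.7 for Enpp2, 44.2, 44.4 and 39.9 for Kl, and 17.1, 14.1 and 18.6 for Foxj1, where number 1 was not the lowest. In each pair Ttr, Prlr and Clic6 stayed at or below 12.6%, and Enpp2 and Kl at or above 36.2%. What lay behind a low percentage was not tested. RNA of untagged cells left behind or carried over in the purification, cell number and RNA per cell cannot be told apart in bulk RNA.

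Per kilobase of exon, the order of the 7 genes changed with the fraction. In ES IP the order was Enpp2 (15.2 CPM per kb), Foxj1 (1.59), Ttr (0.973), Clic6 (0.770), Kl (0.293), Prlr (0.0700) and Folr1 (0.0410). There the ranges of Foxj1 and Ttr, of Ttr and Clic6, and of Prlr and Folr1 overlapped. In JL IP it was Ttr (39.8 CPM per kb), Enpp2 (16.1), Kl (0.780), Foxj1 (0.386), Clic6 (0.328), Folr1 (0.267) and Prlr (0.0762), and each neighbouring pair from Foxj1 down overlapped. In JL input it was Ttr (543 CPM per kb), Enpp2 (43.2), Clic6 (3.38), Foxj1 (2.30), Kl (1.82), Prlr (0.930) and Folr1 (0.704), with no overlap between neighbours.

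Most reads of the 7 genes came from Ttr and Enpp2. Ttr made up 1.15 ± 0.420% of their summed raw counts in ES IP, 31.0 ± 3.58% in JL IP and 68.0 ± 2.63% in JL input. Enpp2 made up 87.7 ± 1.26%, 61.5 ± 3.59% and 26.5 ± 2.34% in the same groups. Their summed level was 100.1 ± 10.5 CPM in ES IP, 152 ± 13.6 CPM in JL IP and 946 ± 37.7 CPM in JL input. Without Ttr it was 99.0 ± 10.4 CPM in ES IP, 104 ± 8.23 CPM in JL IP and 302 ± 13.6 CPM in JL input. The sum of the other 6 genes thus differed between ES IP and JL IP by less than the spread between replicates. That sum was mostly Enpp2, at 87.9 CPM in ES IP and 93.1 CPM in JL IP. Of the rest, Kl was lower in ES IP than in JL IP, Clic6 and Foxj1 were higher, and Folr1 and Prlr overlapped.

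**Figure D3:**
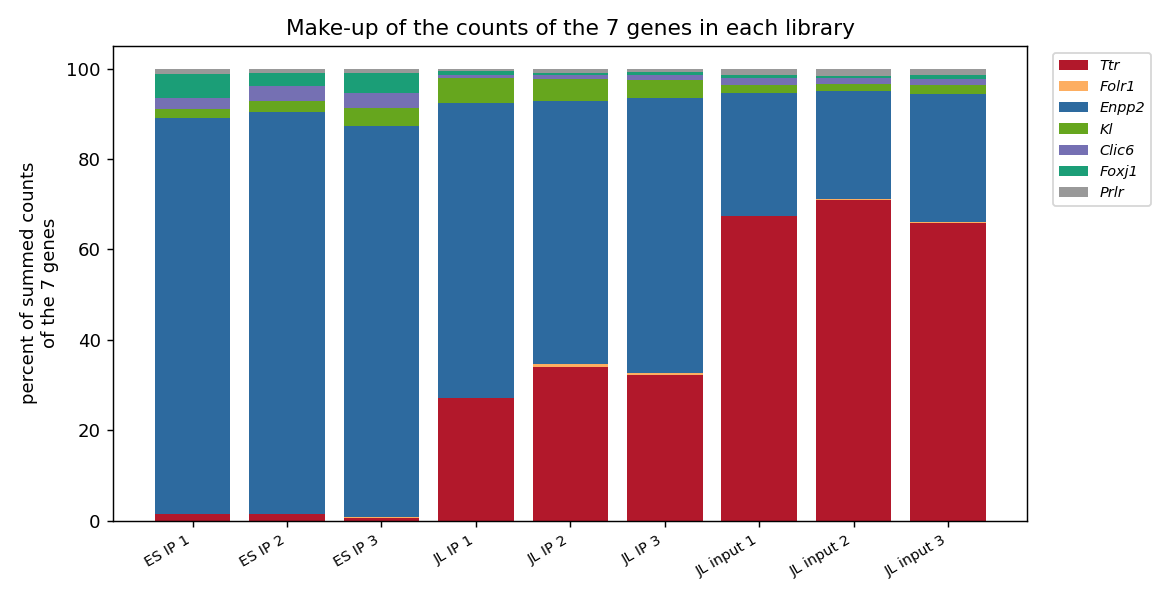
Percentage of the summed raw counts of the 7 genes that each gene took in each library; counts are not divided by exon length. Ttr fills 68.0% on average in JL input, 31.0% in JL IP and 1.15% in ES IP, and Enpp2 takes most of the rest.

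Other genes of choroid plexus epithelium, a list of 45, moved in both directions. In JL IP against JL input, 14 of 41 tested genes rose (34.1%, beside 36.7% of all tested genes) and 19 fell (46.3%, beside 37.4%), and 8 did not pass edgeR's quasi-likelihood test at an adjusted p of 0.05. The list's median log2 fold change was -0.65, against -0.09 over all tested genes. Of the most abundant members, Igf2, a growth factor secreted by choroid plexus and meninges, fell to 33.9 ± 2.38 CPM in JL IP, against 128 ± 5.05 CPM in JL input (-1.92 ± 0.08; adjusted p = 1.08e-07). Htr2c, the serotonin 2C receptor, which neurons also express, stood at 5.98 ± 1.33 CPM against 40.7 ± 0.968 CPM (-2.77 ± 0.16). Vat1l stood at 10.1 ± 1.80 CPM against 73.8 ± 1.43 CPM (-2.88 ± 0.13). Slc12a2, the sodium-potassium-chloride cotransporter of the secreting epithelium, and Trpm3, a cation channel, fell less, with -1.39 ± 0.15 and -1.26 ± 0.15.

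Otx2, Slc4a5 and Prr32 were among the genes with the lowest fold changes of the list in at least 1 comparison, and they were scarce in the immunopurified RNA. Otx2 stood at 0.0721 ± 0.0650 CPM in ES IP, 1.09 ± 0.124 CPM in JL IP and 7.25 ± 0.608 CPM in JL input. Its JL IP level lay below JL input by -2.73 ± 0.24 on the log2 scale (adjusted p = 1.13e-05, edgeR's quasi-likelihood test) and its ES IP level below JL IP by -3.86 ± 0.83 (adjusted p = 0.00218), or -4.83 without ES IP replicate 1. Slc4a5, a bicarbonate transporter, stood at 0.0152 ± 0.0264, 0.330 ± 0.284 and 3.05 ± 0.264 CPM in these groups. Prr32 was not counted in any ES IP library and stood at 0.0991 ± 0.0918 CPM in JL IP and 2.08 ± 0.196 CPM in JL input. By their means, all 3 genes had their highest level in JL input and their lowest in ES IP, as Ttr did, though ES IP and JL IP were both close to the limit for Slc4a5 and Prr32.

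The genes of this list that rose in JL IP included Trpv4, a cation channel, at 10.4 ± 3.73 CPM in JL IP and 0.808 ± 0.147 CPM in JL input (3.67 ± 0.34; adjusted p = 1.35e-05), and Cdkn1c, a cell cycle inhibitor, at 38.3 ± 9.61 CPM and 3.73 ± 0.123 CPM (3.36 ± 0.20). Tuba1c, an alpha tubulin, and Cab39l rose too, by 3.37 ± 0.32 and 1.12 ± 0.10. All 14 endothelial markers rose in the same comparison, with a median of 7.62, beside 36.7% of all tested genes. Of 13 markers of fibroblasts and meninges, 9 rose and 3 fell, with a median of 1.98. The list's summed level ranged from 370 to 423 CPM in ES IP, 546 to 704 CPM in JL IP and 535 to 546 CPM in JL input, so the list's sum was not lower in JL IP than in JL input. Of the 45 genes, 3 were at 0 in all ES IP libraries, 2 in all JL IP libraries and 1 in all JL input libraries. The part of endothelial or meningeal RNA in these values was not tested.

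In ES IP against JL IP, 4 of 34 tested choroid plexus genes rose (11.8%, beside 29.7% of all tested genes) and 17 fell (beside 28.2%), with a median of -0.83 against 0.03 over all genes. Igf2 stood at 16.7 ± 4.90 CPM in ES IP and 33.9 ± 2.38 CPM in JL IP (-1.02 ± 0.23; adjusted p = 0.00301), and Trpv4 fell most after Otx2 (-3.68 ± 0.37). Vat1l and Htr2c rose, to 70.2 ± 10.2 CPM in ES IP, against 10.1 ± 1.80 CPM in JL IP, and to 32.1 ± 0.299 CPM, against 5.98 ± 1.33 CPM. Tuba1c rose by 1.87 ± 0.25. Against JL input, 22 of 42 tested genes fell in ES IP and 3 rose, beside 25.3% and 26.9% of all tested genes.

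Genes of ependyma and motile cilia, the programme that Foxj1 switches on, were mostly lower or undecided in JL IP, and the 4 most abundant in JL input had their lowest level there, as Foxj1 did. Of 35 genes tested in JL IP against JL input, 17 fell (48.6%, beside 37.4% of all tested genes) and 2 rose (5.71%, beside 36.7%), with a median of -1.76. The 2 that rose were Rfx2 and Dnah6; Rfx2, a transcription factor of cilia genes named here after its values were seen, stood at 3.60 ± 0.570 CPM in ES IP, 11.6 ± 3.30 CPM in JL IP and 3.02 ± 0.196 CPM in JL input (SD, n = 3 each). The 17 became 10, 10 and 11 without JL input replicate 1, 2 and 3. Rfx3, a transcription factor of cilia genes that is also expressed elsewhere in brain, stood at 141 ± 30.6 CPM in ES IP, 50.4 ± 3.56 CPM in JL IP and 171 ± 3.26 CPM in JL input. Ccdc39, an assembly factor of the ciliary axoneme, stood at 9.61 ± 3.35, 0.964 ± 0.302 and 10.5 ± 0.416 CPM in these groups. Spag6 stood at 6.26 ± 0.701, 1.27 ± 0.886 and 8.16 ± 0.812 CPM and Rsph1, a radial spoke protein, at 5.16 ± 0.463, 1.20 ± 0.968 and 5.81 ± 0.588 CPM. All 4 were at their lowest in JL IP, and their means in ES IP lay nearer to JL input than to JL IP. Against JL input, Spag6 was lower in ES IP (-0.47 ± 0.16, adjusted p = 0.0392, edgeR's quasi-likelihood test). Rfx3, Ccdc39 and Rsph1 did not pass that test, though every ES IP library of Rfx3 lay below every JL input library.

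Of the cilia genes tested in ES IP against JL IP, 5 of 28 rose (17.9%, beside 29.7% of all tested genes) and 3 fell, with a median of 0.98; the count of 5 was 8 without any 1 of the JL IP replicates. Ccdc39 rose by 3.32 ± 0.38 (adjusted p = 2.55e-05, edgeR's quasi-likelihood test), Rfx3 by 1.48 ± 0.19, Spag6 by 2.30 ± 0.48 and Rsph1 by 2.09 ± 0.52. Spag6 gave 3.03 without JL IP replicate 3 and Rsph1 2.98 without JL IP replicate 2. Dnah6, an axonemal dynein heavy chain, went the other way, with 1.74 ± 0.374 CPM in ES IP, 11.3 ± 2.96 CPM in JL IP and 2.22 ± 0.328 CPM in JL input. Against JL input, 12 of 33 tested cilia genes fell in ES IP (36.4%, beside 25.3% of all tested genes) and 21 did not pass.

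**Figure D4:**
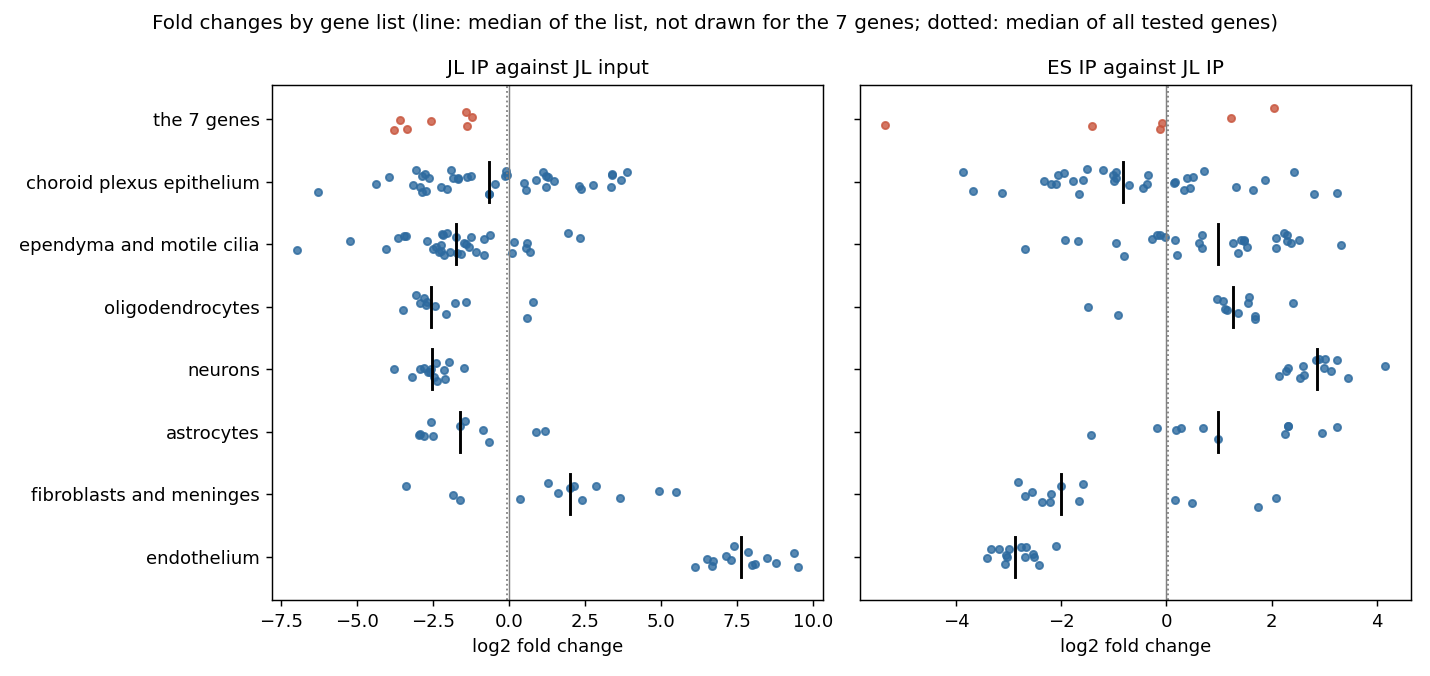
log2 fold changes of the 7 genes (red) and of tested genes of other lists (blue), in JL IP against JL input (left) and ES IP against JL IP (right); black lines are medians of the lists and dotted lines the medians of all tested genes. In ES IP against JL IP the medians are -0.83 for choroid plexus epithelium, 0.98 for ependyma and motile cilia, 2.87 for neurons and -2.88 for endothelium.

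Markers of other cells moved between the groups at the same time. In ES IP against JL IP, 29.7% of all tested genes rose and 28.2% fell. All 14 neuron markers rose (median 2.87) and all 14 endothelial markers fell (median -2.88). Of 12 oligodendrocyte markers 9 rose and 2 fell (median 1.26), and of 11 astrocyte markers 7 rose and 1 fell (median 0.97). Of 10 microglia markers 6 rose and 1 fell (median 1.52), and of 10 mural cell markers 3 rose and 2 fell (median 0.51). Of 13 markers of fibroblasts and meninges, 2 rose and 9 fell (median -2.01). In JL IP against JL input, 36.7% of all tested genes rose and 37.4% fell. All 14 neuron markers fell (median -2.53). Of 12 oligodendrocyte markers 10 fell and 2 rose (median -2.57), and of 11 astrocyte markers 9 fell and 2 rose (median -1.63). Of 10 microglia markers 9 fell and 0 rose (median -2.38). Mobp, a myelin protein, stood at 153 ± 29.7 CPM in ES IP, 68.9 ± 14.7 CPM in JL IP and 374 ± 29.2 CPM in JL input. Summed oligodendrocyte markers ranged from 1313 to 1521 CPM in ES IP, 902 to 1062 CPM in JL IP and 2666 to 3077 CPM in JL input, and none of the 12 was at 0 throughout a group. For JL IP over JL input the log2 fold change was -1.43 ± 0.08 for Enpp2, made by oligodendrocytes as well, and -2.45 ± 0.16 for Mobp. For ES IP over JL IP it was -0.08 ± 0.16 for Enpp2 and 1.15 ± 0.21 for Mobp. The part of these cells in the levels of the 7 genes was not tested.

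Genes that act with each of the 7 were set beside them. In JL IP against JL input 36.7% of all tested genes rose and 37.4% fell, and the counts of the partner lists below are to be read beside these shares. Of 12 tested genes that handle thyroxine and retinol, 5 rose and 6 fell. Stra6, the retinol receptor, reached 309 ± 38.0 CPM in JL IP, against 3.44 ± 0.202 CPM in JL input (6.48 ± 0.13; adjusted p = 2.36e-09, edgeR's quasi-likelihood test). The thyroid hormone receptors Thra and Thrb fell, by 0.37 and 1.87 on the log2 scale. Around Folr1, 6 of 14 genes of folate uptake and use rose (42.9%) and 4 fell (28.6%), near the shares of all genes: the proton-coupled folate transporter Slc46a1 stood at 0.754 ± 0.153 CPM against 4.12 ± 0.222 CPM (-2.45 ± 0.32), and Tyms, thymidylate synthase, at 12.4 ± 0.475 CPM against 2.28 ± 0.437 CPM (2.44 ± 0.21).

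Around Enpp2, 4 of 9 tested genes of lysophosphatidic acid signalling rose and 1 fell in JL IP against JL input. The receptor Lpar6 stood at 78.7 ± 19.4 CPM in JL IP and 4.55 ± 0.512 CPM in JL input (4.11 ± 0.20), whereas Lpar1 stood at 15.8 ± 6.08 CPM and 19.4 ± 2.06 CPM and did not pass (adjusted p = 0.303, edgeR's quasi-likelihood test). Around Kl, 3 of 7 tested genes rose and 4 fell. The sheddases Adam10 and Adam17, which release klotho from the membrane, rose by 0.95 ± 0.09 and 2.62 ± 0.11, and the FGF receptor Fgfr2 fell (-1.34 ± 0.11). Fgf23, the hormone that klotho helps to bind, stood at 0.157 ± 0.0220 CPM in JL IP and 1.73 ± 0.652 CPM in JL input (-3.43 ± 0.55).

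Clic6 differed in sign from the other members of its family. All 4 other tested chloride intracellular channel genes rose in JL IP against JL input, with a median of 4.62. All 4 fell in ES IP against JL IP, with a median of -2.22, where 28.2% of all tested genes fell. Clic5 stood at 69.2 ± 7.49 CPM in ES IP, 460 ± 20.2 CPM in JL IP and 4.89 ± 0.347 CPM in JL input. Clic4 stood at 242 ± 41.3, 1156 ± 42.7 and 87.5 ± 3.19 CPM. The values for Clic6 in these comparisons were -3.37 and 1.23. Around Prlr, 7 of 8 tested genes of prolactin and growth hormone signalling rose in JL IP against JL input, among them the kinase Jak2 at 135 ± 16.2 CPM against 47.0 ± 1.45 CPM (1.51 ± 0.10) and the feedback inhibitor Socs2 at 78.8 ± 9.77 CPM against 25.7 ± 2.36 CPM (1.61 ± 0.12). These lists were chosen with earlier results of these libraries known, and no list was tested as a set.

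The genes whose level ran most like that of Ttr were sought by Pearson's correlation of log2(CPM + 0.5) over the 9 libraries, which describes mainly the order of 3 groups that also differ in investigator and lane. The 10 most alike of 13273 genes were Pmch (0.994), Prkcd (0.990), Man1a (0.987), Shox2 (0.987), Ero1l (0.985), Hgsnat (0.983), Elmod2 (0.981), Cd47 (0.981), Tapt1 (0.979) and Otx2 (0.978). Pmch, the precursor of the hypothalamic peptide melanin-concentrating hormone, stood at 0.0381 ± 0.0659 CPM in ES IP, 1.79 ± 0.494 CPM in JL IP and 5.99 ± 0.832 CPM in JL input. Shox2, a homeobox factor expressed in thalamus, stood at 0.0152 ± 0.0264, 1.81 ± 0.925 and 9.38 ± 0.392 CPM, and Prkcd, a protein kinase C isoform abundant in thalamus, at 5.58 ± 0.536, 19.4 ± 0.433 and 36.7 ± 4.85 CPM. Among the 7 genes, Kl was the most like Ttr (0.962, rank 41), followed by Folr1 (0.872, rank 208), Enpp2 (0.845, rank 282), Prlr (0.837, rank 305), Clic6 (0.594, rank 1143) and Foxj1 (0.145, rank 3894). Most of the genes closest to Ttr were therefore not in the choroid plexus list, and Otx2 was the only one of the 10 that was.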

How the data were processed

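The 9 libraries were grouped by their titles. Per the submitters' processing notes, STAR 2.0.0e aligned the reads to mm10 and HTSeq counted them; the annotation used for counting is not given in the sources used here. The deposited files hold the authors' raw counts; rows that name no gene were left out, and 0 columns of values were unmapped. Levels are CPM by TMM effective library size. Each comparison was fitted on its 6 libraries in R 4.3.3 with the quasi-likelihood F-test of edgeR 4.0.16 after filterByExpr, TMM and estimateDisp. The fit was also run on simulated counts in which few genes changed, as many up as down. That run cannot show how the scaling behaves where many genes differ, as they do here. P-values were adjusted by Benjamini-Hochberg over every gene tested, and 0.05 was the threshold. SE is the absolute log2 fold change over the square root of F. DESeq2 1.42.0, other scalings, no filter on low counts, leaving out Rn45s, 1 fit of all 9 libraries, a replicate block and leaving out each library were alternatives. Of 32531 rows, 23155 matched GENCODE M21; all 224 list genes had a row, 3 by an older symbol. Members, the 15 lists and tests were chosen with earlier results of these data known. Named list genes are those highest in JL input and those with the highest and lowest fold changes (for cell types, the median one), leaving out some that 1 library decided. The likeness search took genes with a mean of at least 1 CPM in a group. 1 named list gene is not reported here.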

Additional observations from a re-analysis of the deposited data

How the results depend on the processing

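No fold change of the 7 genes changed sign under the alternatives run, and 270 of 280 alternative values lay within the spread between replicates of the value reported. Of 42 mean levels under CPM by total gene count or without Rn45s, 17 moved beyond that spread and 25 did not. Library size alone and upper quartile scaling shifted the median of all genes by -0.26 and -0.25 in JL IP against JL input and by -0.11 and -0.15 in ES IP against JL input. No filter on low counts shifted it by -0.43 in JL IP against JL input, -0.13 in ES IP against JL input and 0.19 in ES IP against JL IP. With library size alone Enpp2 gave -1.69, Kl -1.49, Foxj1 -2.84 and Prlr -3.86 in JL IP against JL input. Leaving out 1 library moved Folr1 there between -1.82 and -0.81, and in ES IP against JL input between -4.79 and -3.71. The cause of the changes in counts that follow was not tested. The 17 cilia genes lower in JL IP than in JL input ranged from 10 to 20 without 1 library. The 5 cilia genes higher in ES IP than in JL IP became 8 with DESeq2, 8 with no filter on low counts, 11 with all 9 libraries in 1 fit, 9 with the replicate block, and 4 to 8 without 1 library. The 12 cilia genes lower in ES IP than in JL input became 6 with all 9 libraries in 1 fit. No label says whether replicate numbers pair libraries. Same-numbered JL IP and JL input deviations from the group means correlated weakly, at 0.140, 0.0631 and 0.0930, each the highest for its library. In both JL groups, Ddx3y had more than 1 count only in replicate 1. Whether the numbers pair mice was not tested further. With the replicate block Ttr gave -3.78 and Folr1 -1.91 in JL IP against JL input, and 6124 genes were called higher and 6307 lower there, against 6372 and 6487 without it. Levels near 3 counts, as for Folr1 in ES IP, carry large counting error.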
